A study of Mus musculus with 15 samples.

Results

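AA-treated and HMS-I1-treated mouse testes were compared gene by gene, using 3 RNA sequencing libraries of each treatment. The comparison covers 6 of the 15 libraries of the series and the 17896 of 36118 genes whose mean over all 15 libraries was at least 10 normalised counts. All groups were whole testes of C57/BL6 mice. The other groups, Control, MTX and TSA, also had 3 libraries each, and their spread entered the test. The labels do not spell out the treatment names and give no dose, age or duration. The series concerns modifications of histones H3 and H4 and the arrangement of chromosomes in meiotic prophase, and this comparison sets the testis profiles of AA and HMS-I1 against each other directly. The titles name 3 replicates of HMS-I1, but the treatment field of replicate 2 reads HMS-I2 and that of replicate 3 reads HMS-I3, so the n of 3 rests on the titles. Nothing says that replicates came from separate animals, so a p-value here reflects how far these libraries vary, and that variation may be technical.

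A testis holds the seminiferous tubules, in which germ cells pass from spermatogonia through meiosis to spermatids under the care of Sertoli cells, and the interstitium with Leydig cells, vessels and macrophages. Late spermatids replace histones with transition proteins and then protamines, so the mRNAs of those proteins mark the last steps of sperm formation. Interferons are signals that cells release on sensing foreign or misplaced nucleic acid or on immune activation. Their receptors activate transcription factors, STAT2 and IRF9 among them, which switch on genes for nucleic acid sensors, antiviral effectors, chemokines and antigen presentation. Members of each list are counted as higher or lower in AA whether or not the difference passes a test, and a difference means AA minus HMS-I1 on the scale of log2(normalised count + 1).

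The libraries of both groups split in the same way: replicate 1 lay far from replicates 2 and 3 along the first principal component of all 15 libraries, which held 50.5% of the variance. Its coordinates were -81.5, 29.8 and 71.8 for AA replicates 1, 2 and 3, and -96.3, 58.9 and 35.9 for HMS-I1 replicates 1, 2 and 3. Replicates of equal number thus lay on the same side, although AA replicate 2 was closer to HMS-I1 replicate 3, and AA replicate 3 to HMS-I1 replicate 2. The 13 mitochondrially encoded genes held 1.28%, 5.95% and 8.23% of the summed values in AA and 1.08%, 9.62% and 3.54% in HMS-I1. Sequencing depth is unknown. The commonest low value in a library served as a rough stand-in for what 1 read is worth. It was 2.05 and 2.53 in the first replicates of AA and HMS-I1 and 0.453 to 0.917 in the other 4. Low values may thus be coarser in the first replicates, although few of them were whole multiples of the commonest value. Markers of elongating spermatids, Sertoli cells and Leydig cells were above 0 in each of the 6 libraries.

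No gene passed the test between AA and HMS-I1. Of 17896 genes, 0 had AA higher and 0 had AA lower at an adjusted p under 0.05 by limma (0.0% and 0.0% of genes), and the smallest adjusted p was 1. Without adjustment, 126 genes were higher in AA at a p under 0.05 (0.704%) and 97 were lower (0.542%). The test had no term for the replicate number, so the distance between replicate 1 and the others was part of its spread. The count of genes passing was also 0 under each of the 22 other settings tried, with unadjusted counts of 88 to 2282 and a smallest adjusted p of 0.108. The values below therefore describe these 6 libraries, and every adjusted p of a gene named here was 1.

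The replicate numbers gave 3 separate differences per gene, and they had little in common. Across genes, which are not independent replicates, the correlation of these differences was 0.062 between numbers 1 and 2, 0.093 between 1 and 3, and -0.15 between 2 and 3. Differences of at least 1 in size were seen in 1437 genes at number 1, 1772 at number 2 and 2848 at number 3. AA was higher at all 3 numbers in 2487 genes (13.9%) and lower at all 3 in 2244 (12.5%). It was higher by at least 1 at each number in 58 genes (0.324%) and lower by at least 1 at each number in 8 (0.0447%). All 3 AA values lay above all 3 HMS-I1 values in 446 genes (2.49%) and below them in 457 (2.55%). Over all genes, AA was higher in 51.6% and lower in 48.3%, with a median difference of 0.01.

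Interferon response genes mostly had higher values in AA. Of 42 members measured, 41 had a higher mean in AA, against 51.6% of all genes, and 1 had a lower mean. The list holds 43 names, of which Rigi and Ddx58 are the same gene. The median difference was 0.92, with medians of 0.62, 0.90 and 1.45 at numbers 1, 2 and 3. Values were higher at all 3 numbers in 30 members, against 13.9% of all genes, and 11 members had no overlap between the groups, against 2.49%. Of the 42, 8 had an unadjusted p under 0.05, all with AA higher, against 0.704% of genes. In bulk tissue, more cells of a type and more RNA per cell cannot be told apart.

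**Figure D1:**
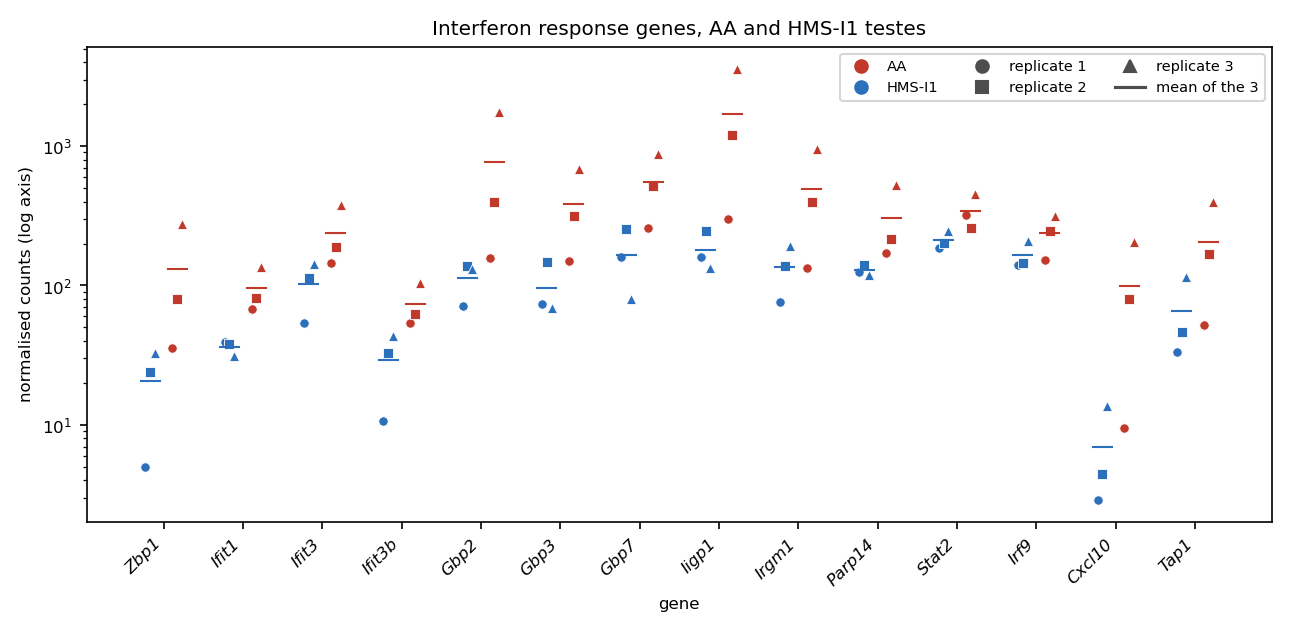
Normalised counts (log axis) of 14 interferon response genes in each AA and HMS-I1 library, with the marker shape giving the replicate number and a line the mean of the 3 libraries. AA replicate 3 is the highest of the 6 points for each gene shown, from 104 for Ifit3b to 3596 for Iigp1.

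Of 4 transcription factors of the pathway described here, Stat2 kept the groups apart and the others overlapped. Stat2, which acts in the type I response, had 318, 259 and 450.1 in AA and 186, 203 and 247 in HMS-I1. All 3 AA values lay above the HMS-I1 values, and the difference was 0.66 (SE 0.35). Irf9, the DNA-binding partner of STAT2, had 153, 246 and 315 in AA and 141, 146 and 208 in HMS-I1, a difference of 0.49 (SE 0.34) with overlap. Irf7, which amplifies interferon production, had 82.5, 129.8 and 244 in AA and 21.6, 92.8 and 113 in HMS-I1, and Irf1, an early target of interferon gamma, had 127, 305 and 675 in AA and 117, 115 and 186 in HMS-I1. Irf7 and Irf1 were higher in AA at each number, by 1.88, 0.48 and 1.10 and 0.12, 1.40 and 1.85, but AA replicate 1 lay within the HMS-I1 range for both.

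Among the sensors of nucleic acid, Zbp1, which binds left-handed nucleic acid and can trigger cell death, had 35.6, 80.5 and 275 in AA and 4.98, 23.96 and 32.9 in HMS-I1. The lowest AA value lay just above the highest HMS-I1 value, and the difference was 2.45 (SE 0.98), or 5.46-fold. The RNA sensor gene Ifih1 had 149.7, 198 and 372 in AA and 103, 207 and 102 in HMS-I1, with numbered differences of 0.53, -0.063 and 1.85. Ddx58, which encodes RIG-I, differed by 0.45, -0.032 and 0.99 at numbers 1, 2 and 3. At number 2 neither sensor was higher in AA. Dhx58, the relative of these sensors that lacks their signalling domains, was the 1 member with a lower mean in AA, with 1475, 1138 and 970.4 in AA and 1609.6, 1187 and 1983 in HMS-I1.

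The guanosine triphosphatases that attack the vacuoles of intracellular microbes had some of the larger differences. Iigp1 had 298, 1196 and 3596 in AA and 161, 245 and 133 in HMS-I1. AA replicate 3 was the highest and HMS-I1 replicate 3 the lowest of the 6, the groups did not overlap, and the difference was 2.64 (SE 1.19), or 6.23-fold. Gbp2 had 157, 400.0 and 1762 in AA and 71.3, 137 and 131 in HMS-I1, a difference of 2.14 (SE 1.18), and Gbp3 had 150.4, 316 and 690.2 in AA and 73.2, 148 and 68.9 in HMS-I1, a difference of 1.81 (SE 0.68). Neither gene overlapped between the groups, and for both the difference at number 3 was the largest, 1.13, 1.54 and 3.74 for Gbp2 and 1.03, 1.09 and 3.30 for Gbp3. Gbp7 differed by 1.71 (SE 0.67) without overlap, and Gbp6 by 1.89 (SE 0.82) and Irgm1 by 1.54 (SE 0.91) with overlap. These families hold near-identical copies between which reads may be split, so values of single members are uncertain.

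Ifit1, whose product binds foreign RNA ends, had 68.2, 82 and 136 in AA and 39.6, 37.8 and 31.2 in HMS-I1. The HMS-I1 values were close together and all AA values lay above them, a difference of 1.32 (SE 0.52). Ifit3 and its near-copy Ifit3b differed by 1.18 (SE 0.69) and 1.46 (SE 0.64), also without overlap, and their reads may be shared. Parp14, an ADP-ribosyltransferase of the same response, had 171, 215 and 523 in AA and 125, 139.7 and 119 in HMS-I1. Its groups did not overlap, and the numbered differences were 0.45, 0.62 and 2.12. Cxcl10, a chemokine that draws activated lymphocytes, had 9.58, 79.5 and 206 in AA and 2.89, 4.48 and 13.6 in HMS-I1. HMS-I1 replicate 3 exceeded AA replicate 1, so these groups overlapped, with a difference of 3.05 (SE 1.53). Tap1, the peptide transporter of antigen presentation, had 51.7, 169 and 397 in AA and 33.1, 46.7 and 116 in HMS-I1, and Psmb8, an immunoproteasome subunit, had 77.2, 210.0 and 485 in AA and 41.7, 85.6 and 154 in HMS-I1. Both rank the 3 AA libraries in the same order as Iigp1 and Gbp2, with replicate 1 lowest and replicate 3 highest.

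The promoters of 5 of these genes are shown because the list was higher in AA at each number and most of these promoters carry the same short element. They run from 250 bases before to 50 bases after the gene start and come from RefSeq on build GRCm38.p6, an earlier build than the GRCm39 of the deposited values. Capitals mark GAAANNGAA, the core of the interferon-stimulated response element, on either strand, with overlapping matches merged.
Gbp2 (chr3:142620413-142620712, plus strand): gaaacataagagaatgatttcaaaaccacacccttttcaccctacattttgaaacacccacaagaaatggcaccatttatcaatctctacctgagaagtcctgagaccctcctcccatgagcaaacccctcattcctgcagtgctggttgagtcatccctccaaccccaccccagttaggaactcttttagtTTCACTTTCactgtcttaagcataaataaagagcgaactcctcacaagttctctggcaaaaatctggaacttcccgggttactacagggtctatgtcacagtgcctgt
Gbp3 (chr3:142559794-142560093, plus strand): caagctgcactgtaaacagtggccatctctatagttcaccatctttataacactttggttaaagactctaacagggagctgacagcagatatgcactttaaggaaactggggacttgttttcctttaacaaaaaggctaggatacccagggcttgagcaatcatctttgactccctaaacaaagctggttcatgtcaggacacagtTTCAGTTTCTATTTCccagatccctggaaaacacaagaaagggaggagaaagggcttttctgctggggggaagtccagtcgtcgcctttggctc
Ifit1 (chr19:34640639-34640938, plus strand): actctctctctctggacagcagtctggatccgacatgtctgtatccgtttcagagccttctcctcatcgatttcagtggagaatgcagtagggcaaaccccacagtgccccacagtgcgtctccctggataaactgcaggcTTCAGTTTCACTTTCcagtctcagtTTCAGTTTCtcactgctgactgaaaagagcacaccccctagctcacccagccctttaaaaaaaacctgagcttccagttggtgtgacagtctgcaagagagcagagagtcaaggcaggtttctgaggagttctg
Irgm1 (chr11:48871371-48871670, minus strand): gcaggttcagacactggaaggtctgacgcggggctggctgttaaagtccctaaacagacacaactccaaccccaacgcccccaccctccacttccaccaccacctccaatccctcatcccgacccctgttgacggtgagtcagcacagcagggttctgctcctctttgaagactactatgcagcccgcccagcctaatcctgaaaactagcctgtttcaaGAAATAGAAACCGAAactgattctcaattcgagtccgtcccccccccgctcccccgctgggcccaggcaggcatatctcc
Cxcl10 (chr5:92348840-92349139, minus strand): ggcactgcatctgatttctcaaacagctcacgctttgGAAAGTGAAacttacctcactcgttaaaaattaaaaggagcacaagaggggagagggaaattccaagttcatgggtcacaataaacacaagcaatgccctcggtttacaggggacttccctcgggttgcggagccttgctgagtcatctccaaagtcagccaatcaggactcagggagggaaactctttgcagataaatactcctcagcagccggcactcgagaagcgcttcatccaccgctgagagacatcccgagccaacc
The element lies 58 bases before the start of Gbp2 and 44 and 38 bases before that of Gbp3, in both on the reverse strand. Promoters were found for 31 of the 42 interferon members, and 20 of them (64.5%) held it, against 2638 of 27025 genes with a promoter (9.76%). In the promoters of 23 elongating spermatid genes, which had lower values in AA, it was held by 2 (8.70%). In the promoters of 17 Leydig cell and steroid synthesis genes, whose list median was 0.19, it was held by 0. The share of 64.5% describes the genes chosen for the interferon list and not their AA and HMS-I1 values. A match is a run of letters and not evidence that a factor was bound there.

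Against Control, the median of the interferon list was 0.82 for AA, with 39 of 42 members higher, and -0.28 for HMS-I1, with 13 of 42 higher. Both comparisons use the same 3 Control libraries, whose split differs from that of AA and HMS-I1. Along the first principal component, Control replicates 1 and 2 lay with the first replicates, at -77.6 and -93.7. Control replicate 3 lay on the other side, at 58.4. A difference from Control can therefore also hold part of that split. The mean level of the list per library, in log2 normalised counts, was 6.43, 7.12 and 8.06 in AA replicates 1, 2 and 3, 5.77, 6.22 and 6.45 in HMS-I1 and 6.22, 6.41 and 6.53 in Control. AA replicate 1 was thus at the level of Control, and AA replicates 2 and 3 were above all 3 Control libraries. The list also reached 6.22, 7.01 and 7.72 in MTX and 5.73, 7.74 and 6.84 in TSA, so high values were seen in libraries of 3 treatments. Leaving out AA replicate 3 gave a median of 0.57, and leaving out AA replicate 1 gave 1.36. Here and below, leaving out 1 library makes the share of first replicates unequal between the groups.

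**Figure D2:**
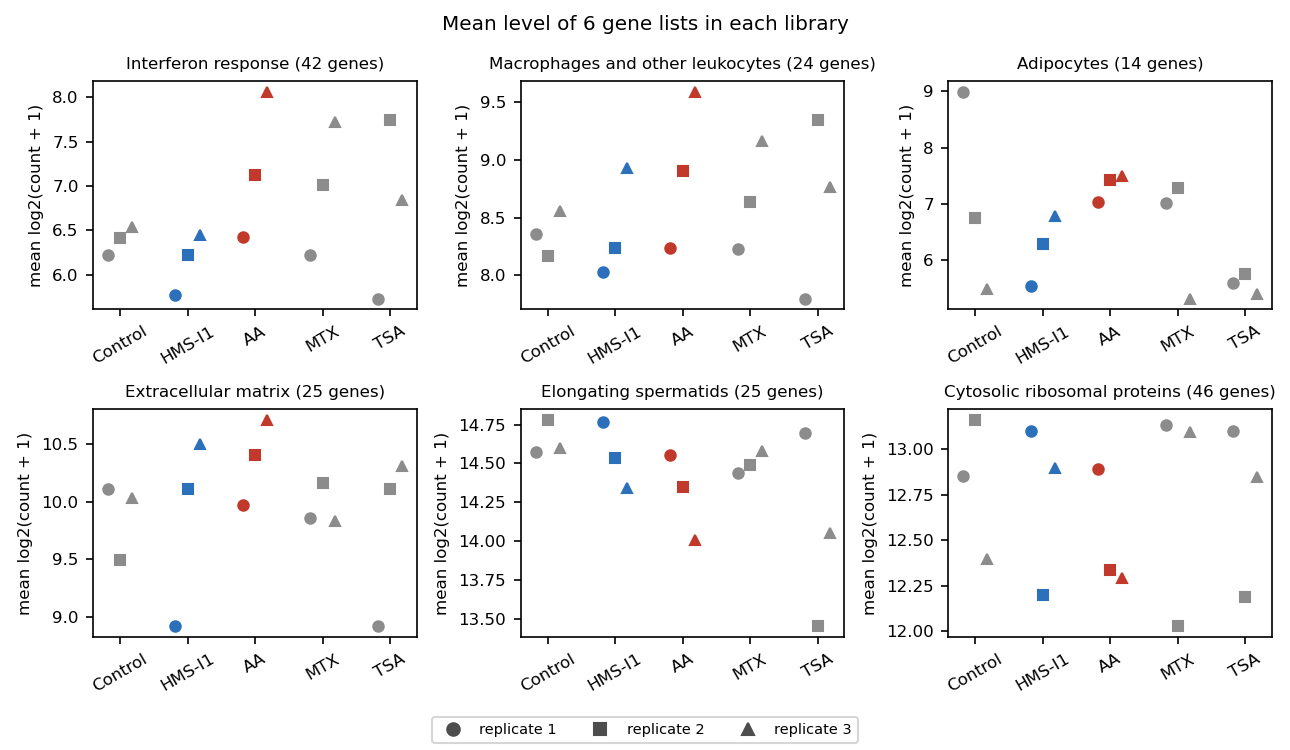
Mean of log2(normalised count + 1) over the members of 6 gene lists in each of the 15 libraries, with the marker shape giving the replicate number, AA in red and HMS-I1 in blue. The interferon list reaches 8.06 in AA replicate 3, the highest of the 15 libraries, and the extracellular matrix list is lowest, at 8.92, in HMS-I1 replicate 1 and TSA replicate 1.

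Leukocyte markers had higher values in AA as well, mostly at numbers 2 and 3. Of 24 genes of macrophages and other leukocytes, 21 had a higher mean in AA, with a median difference of 0.44 and medians of 0.14, 0.65 and 0.70 by number. At all 3 numbers 11 of 24 were higher, against 13.9% of all genes. The summed normalised counts of the list were 21226 to 29779 in AA and 15563 to 22026 in HMS-I1, ranges that overlap, and no marker was at 0 in any of the 6 libraries. The list level followed the interferon level within AA, at 8.24, 8.90 and 9.59 for replicates 1, 2 and 3, and its part in the interferon values was not tested.

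Ptprc, which encodes the pan-leukocyte antigen CD45, had 232, 292 and 813 in AA and 114, 114 and 97.6 in HMS-I1. The 3 HMS-I1 values were within a narrow band, all AA values lay above it, and the difference was 1.80 (SE 0.53), or 3.49-fold. Fcgr1, the high-affinity antibody receptor of macrophages, had 49.5, 118 and 165 in AA and 16.9, 39.04 and 90.2 in HMS-I1, and Itgam, the integrin CD11b, had 88.7, 143 and 303 in AA and 50.96, 92.7 and 142 in HMS-I1. Both were higher in AA at each number with overlap between the groups. H2-Aa, a chain of the class II molecule that presents antigen, had 408, 1192 and 1672 in AA and 335, 274 and 1037 in HMS-I1. HMS-I1 replicate 3 lay above AA replicate 1, and the difference came mainly from number 2, at 0.28, 2.12 and 0.69 for the 3 numbers. Csf1r, the receptor on which macrophages depend, had 1193, 407 and 650.4 in AA and 573, 595 and 721 in HMS-I1. It was higher in AA only at number 1, and the macrophage markers Adgre1 and Cd68 also changed sign between numbers, at -0.56, 1.37 and 0.45 and 0.79, -0.61 and 0.72. Of 13 lymphocyte genes measured, 12 had a higher mean in AA, with a median of 0.49 and medians of 0, 0.78 and 0.77 by number, and 0.23 without AA replicate 3. In this list 3 further genes, the B cell genes Cd79a, Cd79b and Ms4a1, were under the minimum mean.

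Adipocyte genes had the highest median of the 34 lists, 1.02 over the 14 of 15 members that reached the minimum mean, with 0.99, 1.36 and 0.47 by number. AA was higher in 12 of 14, at all 3 numbers in 9, against 13.9% of all genes, and without overlap in 4, against 2.49%. Fabp4, the fatty acid carrier of fat cells, had 159.6, 515 and 528 in AA and 12.03, 84.3 and 169 in HMS-I1. HMS-I1 replicate 3 lay just above AA replicate 1, and the difference was 2.62 (SE 1.44). Lpl, the lipase that frees fatty acids from lipoproteins, had 377, 869 and 936 in AA and 141, 335 and 333 in HMS-I1, a difference of 1.43 (SE 0.82) with no overlap and with numbered differences of 1.42, 1.37 and 1.49. Cfd, which encodes adipsin, had 157, 187 and 159 in AA and 7.97, 24.9 and 118 in HMS-I1. The defining fat cell genes Adipoq and Plin1 did not share the pattern, with 466, 245 and 173 in AA and 646, 149.7 and 199 in HMS-I1 for Adipoq and 75.8, 128 and 175 in AA and 82.1, 143 and 99.2 in HMS-I1 for Plin1. Control replicate 1 held the highest level of this list in the series, 8.99, 6.76 and 5.49 in Control replicates 1, 2 and 3 against 7.03, 7.42 and 7.50 in AA and 5.54, 6.28 and 6.79 in HMS-I1. How much fat tissue came with each testis is not given in the labels, and its part in these values was not tested.

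All 25 extracellular matrix genes measured had a higher mean in AA, and the list median was 0.43, with 0.83, 0.25 and 0.32 by number. HMS-I1 replicate 1 had the lowest list level of the 6 libraries, 8.92, 10.12 and 10.50 in HMS-I1 against 9.97, 10.41 and 10.71 in AA. Col1a1, a chain of type I collagen, had 3788, 4140.4 and 4647 in AA and 664, 3954 and 5308 in HMS-I1, and Col3a1, the type III collagen of interstitial tissue, had 8534, 10213 and 10156 in AA and 1696, 7266 and 11398 in HMS-I1. In both, HMS-I1 replicate 1 stood far below the other 5 libraries and HMS-I1 replicate 3 was the highest of the 6. Col5a2, a chain of fibril-regulating type V collagen, was the 1 member without overlap, where 2.49% of all genes have none, with 704, 603 and 739.6 in AA and 188, 399 and 520.3 in HMS-I1 and a difference of 1.00 (SE 0.50). Without HMS-I1 replicate 1 the median of the list was 0.077, with 15 of 25 members higher. That fit left AA with a first replicate and HMS-I1 with none. Col4a1, a chain of basement membrane collagen, differed by 0.87, 0.59 and 0.49 at numbers 1, 2 and 3.

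Of 12 endothelial genes, 9 had a higher mean in AA, with a median of 0.33 and 0.38, 0.40 and 0.012 by number. Without HMS-I1 replicate 1, which left only AA with a first replicate, that median was -0.15, with the opposite sign. Without HMS-I1 replicate 3 it was 0.67. Kdr, the main receptor for vascular endothelial growth factor, had 328, 293 and 369 in AA and 199.8, 201 and 289 in HMS-I1. The AA values all lay above the HMS-I1 values, by a difference of 0.54 (SE 0.28). Leydig cell and steroid synthesis genes had a median of 0.19, with 16 of 24 higher in AA, and it ran from 0.030 (without AA replicate 3) to 0.35 (without AA replicate 1). Cyp11a1, which makes the first step from cholesterol to steroid, had 6098, 7598 and 10422 in AA and 4611, 5204 and 7987 in HMS-I1, overlapping between the groups. Star, which carries cholesterol into mitochondria, differed by 0.50, -0.14 and 1.75 at the 3 numbers, so its sign was not shared. Sertoli cell genes had a median of 0.10 with 21 of 30 higher. No member of the Leydig or Sertoli lists was without overlap, against 2.49% of all genes with AA higher and 2.55% with AA lower. The Sertoli median changed sign without HMS-I1 replicate 1 (-0.16) and without AA replicate 3 (-0.083), and was 0.38 without AA replicate 1. Of 20 immediate early genes, which respond fast to stimulation or handling, 19 had a higher mean in AA, and the median was 0.26, with 0.20, 0.38 and 0.41 by number and 0.059 without HMS-I1 replicate 1. Atf3, a stress-induced transcription factor of that list, had 20.2, 21.99 and 81.8 in AA and 4.25, 10.1 and 21.8 in HMS-I1.

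**Figure D3:**
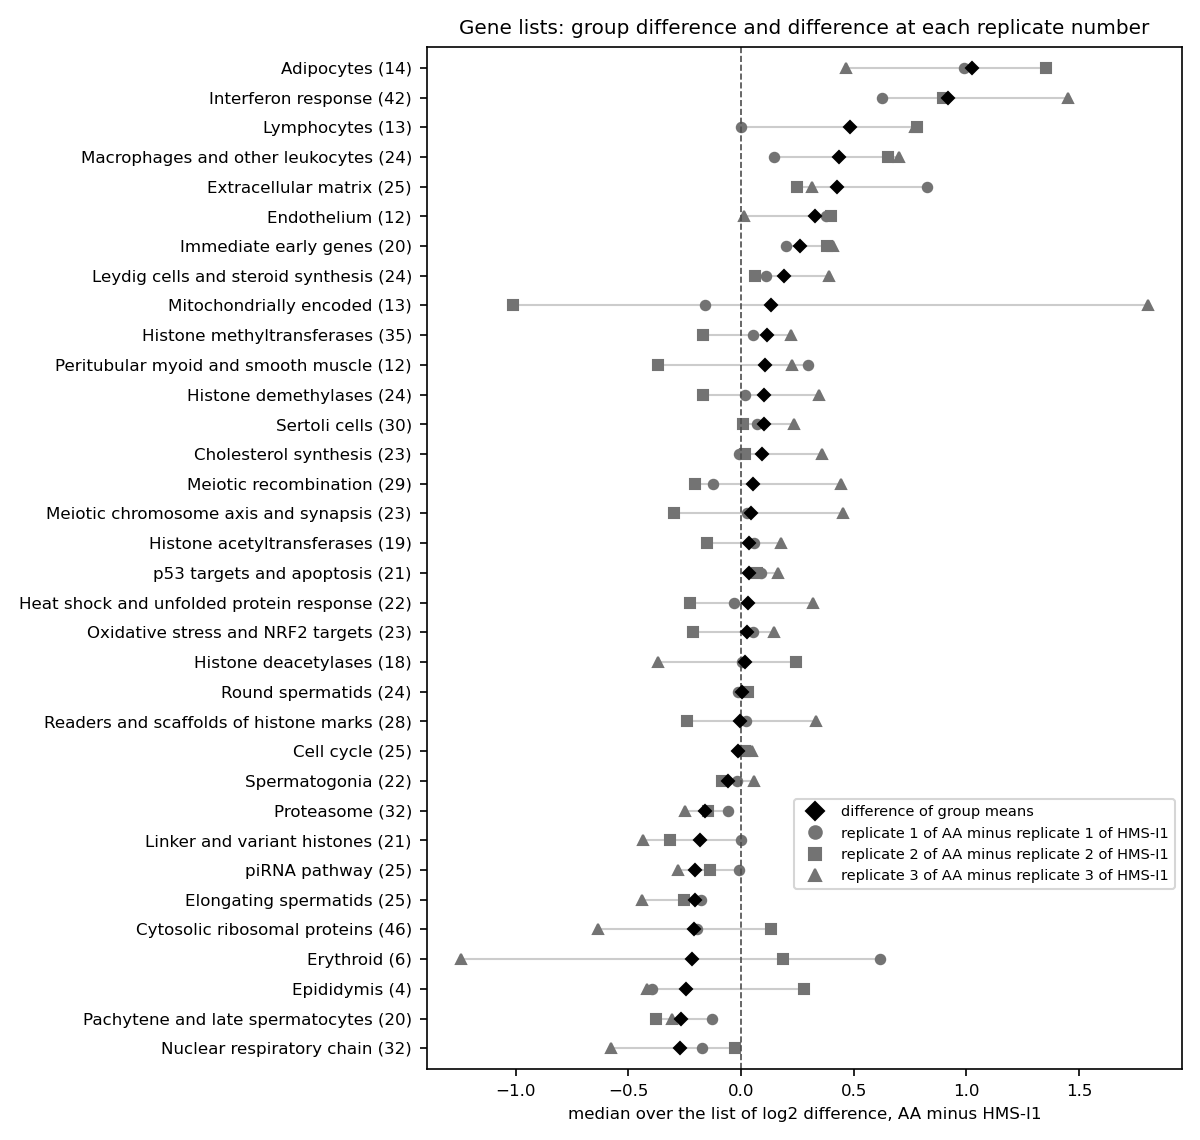
Median over each gene list of the log2 difference, AA minus HMS-I1, for the group means (black diamonds) and at each replicate number (grey circles, squares and triangles), with the number of genes measured in brackets. Interferon and adipocyte lists lie to the right at each number, whereas mitochondrially encoded genes run from -1.01 at number 2 to 1.80 at number 3.

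Late germ cell genes mostly had lower values in AA. Of 25 elongating spermatid genes, 22 had a lower mean, against 48.3% of all genes, with a median of -0.21 and -0.18, -0.25 and -0.44 by number. AA was lower at all 3 numbers in 8 of them, against 12.5% of all genes, and in 0 did the groups stand apart, against 2.55%. Prm1, a protamine that packs sperm DNA, had 101050.0, 38484 and 27525 in AA and 147990.0, 65119.5 and 63563 in HMS-I1. Replicate 1 was the highest library of each group, the groups overlapped, and the difference was -0.84 (SE 0.65). Prm2, the other main protamine, had 191033, 85385 and 59107 in AA and 256801, 104126 and 86801 in HMS-I1, and Tnp1, a transition protein that precedes the protamines, had 222035, 65173 and 57753 in AA and 341615, 81945 and 84689.8 in HMS-I1. For both, replicate 1 exceeded the other libraries of its group by more than AA and HMS-I1 differed at any number. The numbered differences were -0.43, -0.29 and -0.55 for Prm2 and -0.62, -0.33 and -0.55 for Tnp1. Tnp2, the second transition protein, differed by -0.51 (SE 0.43). Without AA replicate 3 the median of the list was -0.068.

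Pachytene and late spermatocyte genes had lower values too, with small differences. AA was lower in 15 of 20, with a median of -0.27 and -0.13, -0.38 and -0.31 by number, lower at all 3 numbers in 7, against 12.5% of all genes, and without overlap in 5, against 2.55%. Spag6l, a protein of the sperm tail's central apparatus, had 9489, 6944 and 8133 in AA and 11075, 11451 and 10897 in HMS-I1. The 3 HMS-I1 values were close together, the AA values all lay below them, and the difference was -0.46 (SE 0.17). Aurkc, the meiotic Aurora kinase, had 763, 512 and 639 in AA and 887, 982 and 919 in HMS-I1, a difference of -0.56 (SE 0.21). Ldhc, the germ cell form of lactate dehydrogenase, had 114798, 104921 and 82259.5 in AA and 128736, 125610.0 and 140477 in HMS-I1, and Nek2, a kinase of the centrosome, had 6578, 5532 and 6272 in AA and 7136, 9055 and 8967 in HMS-I1. Neither overlapped, at -0.40 (SE 0.23) and -0.45 (SE 0.22). Tbpl1, a relative of the TATA-binding protein needed in spermatids, differed by -0.32 (SE 0.18) and completes the 5. Round spermatid genes were evenly divided, 12 higher and 12 lower, with a median of 0.0045.

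The piRNA pathway silences transposons in germ cells through small RNAs, and 17 of its 25 genes had a lower mean in AA, at a median of -0.20, or -0.10 without HMS-I1 replicate 3. Henmt1, which methylates the ends of piRNAs, had 609.8, 601 and 639 in AA and 722, 830.4 and 887 in HMS-I1. AA values were nearly equal and all below HMS-I1, with a difference of -0.39 (SE 0.23). Pld6, a mitochondrial enzyme of piRNA formation, had 1358, 707 and 536 in AA and 1565, 988 and 1539.5 in HMS-I1, where AA replicate 1 lay within the HMS-I1 range. Spermatogonial genes had 10 members higher and 12 lower, with a median of -0.056. Dmrtb1, which governs the switch from mitosis to meiosis, had 11473, 9982 and 9583 in AA and 12811, 16475 and 13017 in HMS-I1, without overlap and with a difference of -0.44 (SE 0.19).

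**Figure D4:**
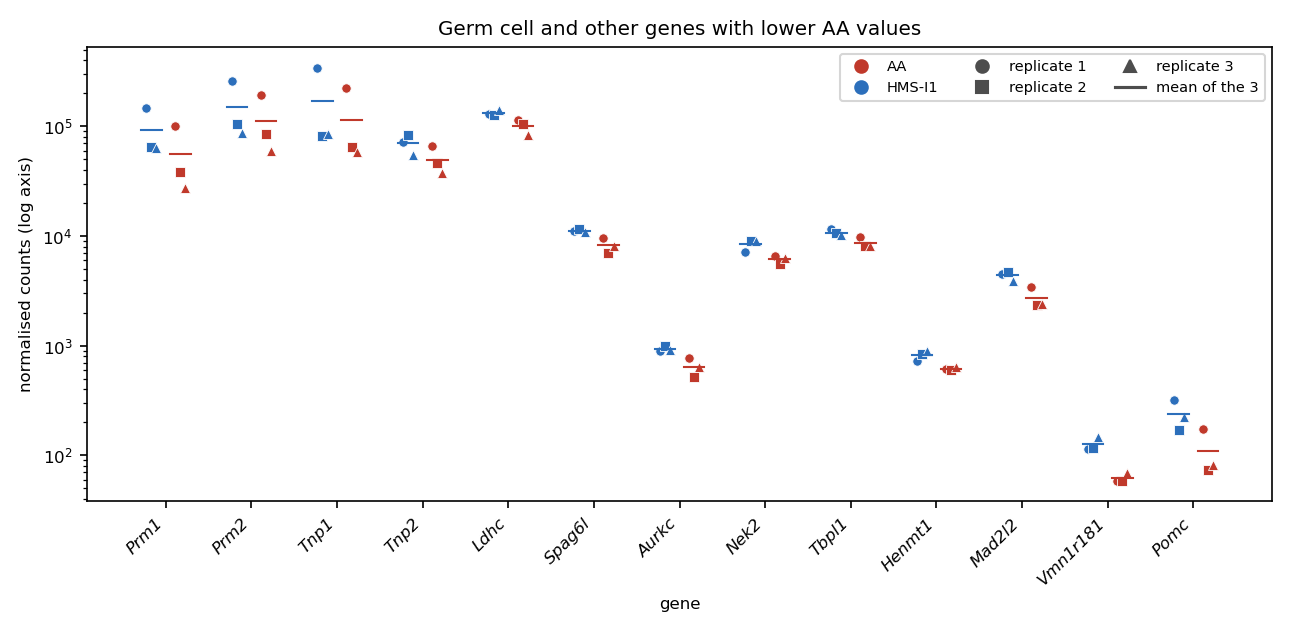
Normalised counts (log axis) of 13 genes with lower means in AA, for each AA and HMS-I1 library, with the marker shape giving the replicate number and a line the mean of the 3 libraries. Replicate 1 is the highest library in both groups for Prm1, Prm2 and Tnp1, whereas Spag6l, Aurkc and Vmn1r181 vary little within HMS-I1.

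Genes of the respiratory chain, the ribosome and the proteasome mostly had lower means in AA. The nuclear genes of the respiratory chain had lower means in 32 of 32 members, with a median of -0.27 and -0.18, -0.026 and -0.58 by number. Leaving out 1 library at a time gave -0.45 (without HMS-I1 replicate 2) to -0.15 (without HMS-I1 replicate 1). Ndufb10, a subunit of complex I, had 2305, 1602 and 1933 in AA and 2989.9, 2508 and 2585 in HMS-I1, without overlap and with a difference of -0.48 (SE 0.20). Cytosolic ribosomal protein genes were lower in 44 of 46, with a median of -0.21, but the medians by number were -0.20, 0.13 and -0.64, so their sign was not shared. That median ran from -0.49 (without HMS-I1 replicate 2) to -0.077 (without HMS-I1 replicate 1). In 1 of the 46, Rpl19 of the large subunit, the groups did not overlap, a share near the 2.55% of all genes, with 9546, 7723 and 9166 in AA and 10654, 10343 and 10838 in HMS-I1. Proteasome subunits were lower in 29 of 32, with a median of -0.16 and -0.058, -0.15 and -0.25 by number, and without HMS-I1 replicate 3 the median was -0.043. The mitochondrially encoded genes had a median of 0.13 that joined -0.16, -1.01 and 1.80 at the 3 numbers, and it ran from -0.93 (without HMS-I1 replicate 1) to 1.42 (without AA replicate 1).

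Transcript length moved with the difference. Over the 17841 genes with a length in the reference (99.7%), taken as the longest annotated transcript, the median difference went from -0.10 in the shortest of 5 equal bins to 0.15 in the longest. At number 3 it went from -0.20 to 0.35, at number 1 from -0.13 to 0.054, and at number 2 from 0.046 to 0.0014. The median length was 1139.5 bases for the ribosomal list, 1335 for elongating spermatids, 1679 for the nuclear respiratory chain, 3122 for the interferon list and 5784 for extracellular matrix. When the length-related part of each library was taken off, the medians were 0.90 for interferon, 0.40 for extracellular matrix, 1.02 for adipocytes, -0.11 for elongating spermatids, -0.18 for the respiratory chain and -0.13 for ribosomal proteins.

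**Figure D5:**
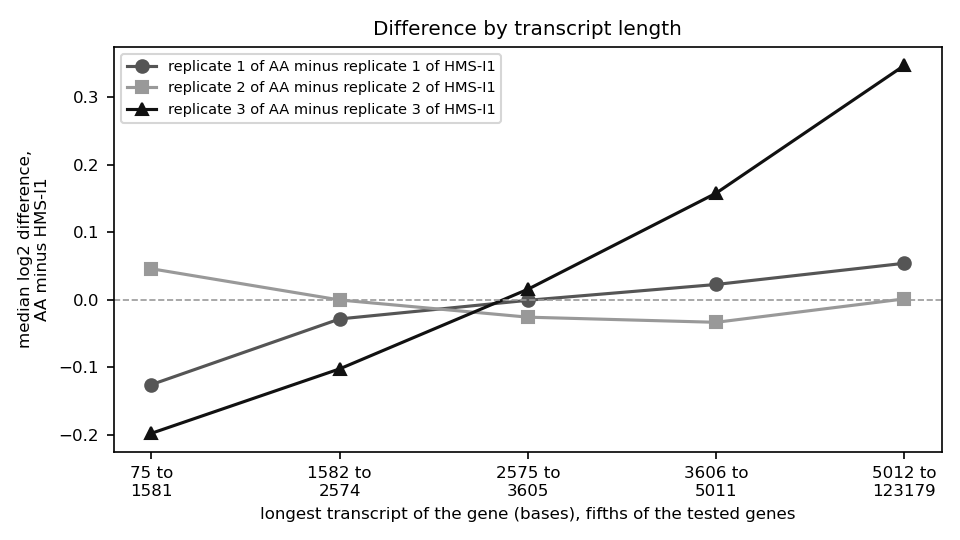
Median log2 difference, AA minus HMS-I1, at each replicate number in 5 equal bins of the tested genes by the length of the longest transcript in bases. The line for number 3 climbs from -0.20 to 0.35, and the line for number 2 stays within 0.05 of 0.

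Genes of meiosis and of histone modification, the subject of the series, had list medians between -0.0064 and 0.11. Genes of the meiotic chromosome axis and synapsis had a median of 0.042 over 23 members and genes of meiotic recombination 0.054 over 29, with numbered medians of 0.025, -0.30 and 0.45 and -0.12, -0.20 and 0.44. Number 3 was positive and number 2 negative in both. The mean was higher in AA in 12 and lower in 11 of the 23 axis genes, and higher in 17 and lower in 12 of the 29 recombination genes. Meikin, which protects centromeric cohesion in meiosis I, had 845, 659 and 742 in AA and 904, 962 and 979 in HMS-I1, and Hsf2bp, which helps to load the strand exchange proteins, had 1805, 1216 and 1503 in AA and 1919.6, 1892 and 1936 in HMS-I1. AA lay below HMS-I1 without overlap in both, at -0.35 (SE 0.21) and -0.36 (SE 0.17). Spo11, which makes the meiotic DNA breaks, had 2847, 1713 and 1709 in AA and 3277, 2673 and 2501 in HMS-I1, where AA replicate 1 lay within the HMS-I1 range. In the other direction, Brca1 of the recombination list was higher in AA by 0.31, 0.23 and 0.99 at numbers 1, 2 and 3. Hormad2 of the axis list was higher by 0.063, 0.53 and 0.046. Both overlapped between the groups.

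Histone acetyltransferases had a median difference of 0.033 over 19 genes, with 0.058, -0.15 and 0.18 by number. Deacetylases had 0.015 over 18 (0.0019, 0.24 and -0.37) and methyltransferases 0.11 over 35 (0.051, -0.17 and 0.22). Demethylases had 0.10 over 24 (0.019, -0.17 and 0.35), and readers and scaffolds of histone marks -0.0064 over 28 (0.021, -0.24 and 0.33). The numbers thus did not share a sign in any of these lists, and each median changed sign when 1 library was left out. Ep300, the acetyltransferase p300, had 1398, 1563 and 1420.1 in AA and 1191, 1195 and 718 in HMS-I1. Its groups did not overlap, and the difference was 0.53 (SE 0.39). In the acetyltransferase list 1 gene had AA higher without overlap and 1 had AA lower, against 2.49% and 2.55% of all genes. Setd7, a lysine methyltransferase, had 332, 434 and 493 in AA and 146, 349 and 202 in HMS-I1, overlapping at AA replicate 1. Among 21 linker and variant histone genes, 15 had a lower mean in AA, with a median of -0.18, which was -0.080 without AA replicate 3 and -0.47 without AA replicate 1. H2afv, a relative of histone H2A.Z, had 585, 543 and 551 in AA and 767, 735 and 827 in HMS-I1, below HMS-I1 in all 3 libraries. Lists of cell cycle, heat shock, p53 and oxidative stress genes had medians between -0.013 and 0.03. Genes of cholesterol synthesis had a median of 0.091, with -0.011, 0.019 and 0.36 by number. The sign was not shared by the numbers in the cholesterol list, nor in the smooth muscle, red cell and epididymis lists that follow. In the p53 list it was shared, at 0.090, 0.069 and 0.16. Smooth muscle genes had a median of 0.11, with 0.30, -0.37 and 0.23 by number, red cell genes -0.22, with 0.62, 0.19 and -1.24, and epididymis genes -0.25, with -0.40, 0.28 and -0.42. Each of these 3 medians changed sign when 1 library was left out, to -0.30 for smooth muscle and 0.076 for epididymis without HMS-I1 replicate 1, and to 0.24 for red cells without HMS-I1 replicate 3. For smooth muscle it was also below 0 without AA replicate 2 (-0.014) and without AA replicate 3 (-0.10).

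Among the genes outside these lists with the smallest unadjusted p, 5 are described first. Vcan, the large matrix proteoglycan versican, had 111, 130.1 and 159 in AA and 44, 65.9 and 53.9 in HMS-I1. The lowest AA value was well above the highest HMS-I1 value, and the difference was 1.28 (SE 0.31), or 2.42-fold. Pkia, an inhibitor of protein kinase A, had 475, 422 and 577 in AA and 222, 288 and 220.0 in HMS-I1, and Akap2, an anchor of the same kinase, had 1643, 1536 and 1869 in AA and 715, 1146 and 765 in HMS-I1. Lair1, an inhibitory collagen receptor of leukocytes, had 264, 245 and 468 in AA and 108, 146 and 178 in HMS-I1, and Runx1, a transcription factor of blood cells, had 72.1, 64.7 and 149 in AA and 12.9, 45.3 and 44.6 in HMS-I1. In each of these the groups did not overlap, at 1.01 (SE 0.26), 0.97 (SE 0.26), 1.14 (SE 0.39) and 1.54 (SE 0.52). Cers6, Tubgcp5 and Hmcn1 had smaller p-values than Lair1 and Runx1. These genes also had AA higher without overlap, by 0.75, 0.73 and 1.10. A choice by small p itself favours groups without overlap, in either direction. Of all genes, 2.49% had AA higher without overlap and 2.55% had AA lower. Against Control, Vcan had a difference of 0.69 for AA and -0.59 for HMS-I1, so AA was above and HMS-I1 below the shared Control mean. Here too the Control libraries were split otherwise than those of AA and HMS-I1. Saa3, an acute phase protein, was higher in AA at each number by 1.54, 2.27 and 1.35, with 204, 175 and 215 in AA and 69.8, 35.6 and 83.9 in HMS-I1, and Uba7, which activates the ubiquitin-like protein ISG15, by 1.82, 2.00 and 1.14.

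In the lower direction, Mad2l2, a subunit of the DNA polymerase zeta and shieldin complexes, had 3395, 2319.9 and 2374 in AA and 4489, 4732 and 3859 in HMS-I1. HMS-I1 stood above AA in every library, and the difference was -0.71 (SE 0.21). Vmn1r181, a gene of the vomeronasal receptor family whose copies can share reads, had 58.8, 58.7 and 69.1 in AA and 115, 117 and 148 in HMS-I1. Both groups were tight, and the numbered differences were nearly equal at -0.95, -0.99 and -1.09. Control had 58.8, 61.9 and 60.8, so the Control values lay with AA and HMS-I1 was higher by 1.04. Pomc, the precursor of several peptide hormones, had 175, 72.8 and 81.4 in AA and 317, 170.2 and 222 in HMS-I1, and Srp14, a subunit of the signal recognition particle, had 5589.6, 3577 and 3905 in AA and 6896, 6692 and 6085 in HMS-I1. For Pomc, AA replicate 1 lay just above HMS-I1 replicate 2, and AA was lower at each number by a mean difference of -1.17 (SE 0.41). Creb5, a transcription factor, was lower in AA by -1.65, -1.41 and -1.30 at the 3 numbers, but its level depended far more on the replicate number, with 5588, 104 and 624 in AA and 17560.5, 277 and 1532 in HMS-I1.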

How the data were processed

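Whole testis RNA was sequenced in 15 libraries. The authors deposited a signal table of counts normalised by DESeq2 1.34.0, which followed transcript quantification by Salmon 0.12.0 on build GRCm39, per the submitters' processing notes. The values are not whole, and no whole reads can be derived, since only 4.00% to 8.92% of low values were whole multiples, within 0.01, of the commonest low value. Depth is unknown. Whether counting used strand is not stated in the labels or notes. Of 36118 identifiers, 35825 were matched to symbols in a GRCm38 annotation.

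Genes that averaged 10 or more were tested on log2(value + 1) with limma 3.58.1 in R 4.3.3 (lmFit, then eBayes with a trend), with the means of 5 groups, 10 residual degrees of freedom, a two-sided contrast of AA minus HMS-I1 and Benjamini-Hochberg adjustment over 17896 genes. SE is the standard error from this model, which has no term for the replicate number. With the number as a block, the SE of Zbp1 was 0.60 in place of 0.98, while that of Lpl was 0.82 in both. The model was tried first on simulated data, with the spread of each gene held to at most the median spread and no split of the libraries. That trial therefore does not show how the model behaves on libraries as uneven as these. The comparison, the 34 gene lists and the rules were chosen with earlier results of these data known. The rule for named genes took the 10 smallest p-values and the 10 largest differences shared by all 3 numbers, in each direction, among genes averaging 50 or more in the 6 libraries that have a proper symbol (predicted gene models named Gm or Rik and bare identifiers were left out), and up to 4 members of each list by their smallest numbered difference. Not every gene it picks is reported, and list members named for their role outside it were chosen after their values were seen. The deviations of equally numbered libraries from their group means correlated at 0.74, 0.23 and 0.34 across genes for numbers 1, 2 and 3. Replicate 1 stood apart from replicates 2 and 3 in both groups, and that split alone would raise the values at numbers 2 and 3. Values for unequal numbers are not given, so a pairing of replicates 2 and 3 by number is not shown. The labels do not say what a number stands for. The response element was searched on both strands of RefSeq promoters of 300 bases. Alternatives were other pseudocounts, filters, scalings and variance models, a replicate block, and leaving out libraries.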

Additional observations from a re-analysis of the deposited data

How the results depend on the processing

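The count of genes past the threshold was 0 in the reported fit and under all 22 other settings tried, 3 of which (leaving out replicate 1 or replicate 3 of both groups, and centring by transcript length) were added after the data were seen. With a replicate block, which treats libraries of equal number as paired, the count was 0 as well, with 582 genes at an unadjusted p under 0.05, and the block changed no call. In the fit of the 6 libraries alone with that block the smallest adjusted p was 0.108. Leaving out 1 library of either group at a time leaves unequal numbers of first replicates in the groups. The list median then changed sign in 19 of the 34 lists. The 15 that kept it were interferon response, adipocytes, macrophages and other leukocytes, lymphocytes, extracellular matrix, immediate early genes, Leydig cells, cholesterol synthesis, pachytene spermatocytes, elongating spermatids, the piRNA pathway, linker and variant histones, and the respiratory chain, ribosomal and proteasome lists. The median difference ran from 0.57 (without AA replicate 3) to 1.36 (without AA replicate 1) for interferon response, from 0.15 to 0.79 for macrophages and other leukocytes, from 0.077 (without HMS-I1 replicate 1) to 0.89 for extracellular matrix, and from -0.30 to -0.068 (without AA replicate 3) for elongating spermatids. Single genes that changed sign over these ranges were Cd68 (-0.19 to 0.58), Csf1r (-0.28 to 0.49), Adipoq (-0.40 to 0.65), Plin1 (-0.094 to 0.50), Col1a1 (-0.13 to 1.37), Prm2 (-0.90 to 0.055), Tnp1 (-1.12 to 0.18) and Creb5 (-2.94 to 0.13). Under other settings, array quality weights gave -0.37 for Cd68 and -0.60 for Csf1r, quantile normalization gave -0.071 for Adipoq, the comparison without replicate 1 of both groups gave -0.35 for Csf1r and -0.063 for Col1a1, and that without replicate 3 of both groups gave -0.14 for Plin1. The cause of these changes of sign was not tested. The weights did not reach their convergence tolerance. Low genes in the first replicates may be limited by coarser steps of their values, since the commonest low value was larger there.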

Other observations

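Genes outside the lists also had higher values in AA at each replicate number, and those given here were chosen after their values were seen. Several belong to natural killer cells and other cytotoxic lymphocytes. Klra1, an inhibitory receptor of natural killer cells, had 4.38, 17.2 and 65.9 in AA and 0, 1.65 and 2.70 in HMS-I1, and Klrd1, a partner chain of such receptors, had 2.57, 16.5 and 54.5 in AA and 0, 3.47 and 10.7 in HMS-I1. Gzma, the killing enzyme granzyme A, had 2.48, 26.2 and 139 in AA and 0, 5.03 and 12.7 in HMS-I1, and Il2rb, a receptor chain for interleukins that sustain these cells, had 30.2, 50.4 and 153 in AA and 12.1, 20.1 and 27.4 in HMS-I1. Each was highest in AA replicate 3, and the differences were 3.13 (SE 1.56), 2.02 (SE 1.19), 2.44 (SE 1.44) and 1.66 (SE 1.05). Klra1, Klrd1 and Gzma were at 0 in HMS-I1 replicate 1 and at 2.48 to 4.38 in AA replicate 1, where the commonest low value was 2.05.

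Acod1, which makes itaconate in activated macrophages, had 18.9, 15.2 and 30.01 in AA and 0, 0.629 and 4.06 in HMS-I1, and Ccl2, a chemokine for monocytes, had 9.63, 18.1 and 56.6 in AA and 0, 1.26 and 9.13 in HMS-I1. All AA values lay above all HMS-I1 values for both. Ciita, the master switch of class II antigen presentation, had 26.6, 49.2 and 139.7 in AA and 12.1, 13.8 and 32.4 in HMS-I1. Mmp12, the macrophage elastase, had 369.6, 102 and 489 in AA and 6.89, 3.71 and 275 in HMS-I1, with numbered differences of 5.55, 4.46 and 0.83. HMS-I1 replicates 1 and 2 were near 0 while HMS-I1 replicate 3 was not. Further guanosine triphosphatase genes outside the list were higher too, with 126, 319 and 952 in AA and 61.8, 135 and 170.1 in HMS-I1 for Irgm2 and 67.5, 155 and 327 in AA and 28.9, 74.6 and 45.8 in HMS-I1 for Gbp9, and their reads may be shared with relatives. Of the 58 genes higher (0.324% of all genes) and 8 genes lower (0.0447%) by at least 1 at all 3 numbers, 11 belong to a list. The share of all genes that belong to a list was not counted, so 11 is not read as many or few.

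The largest single difference was that of Gm21845, a gene model without a given function, with 214, 215 and 56.9 in AA and 0, 0 and 0 in HMS-I1 and 35.6, 66.03 and 0 in Control. It was listed at 0 in each HMS-I1 library and in 1 of 3 Control libraries. Gm28827 had 432, 204 and 205 in AA and 0, 0 and 98 in HMS-I1 and was listed at 0 in the 3 Control libraries.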
